A study of Mus musculus with 6 samples.

Results

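The Slit ligands and Robo receptors of the mouse sciatic nerve are described here across 6 RNA-seq libraries, 3 labelled as double conditional knockouts of YAP and TAZ (cKO) and 3 labelled wild-type (WT). The 6 genes are Slit1, Slit2, Slit3, Robo1, Robo2 and Robo4, taken by symbol from the 24421 genes of the count files, and 5 of them passed the filter on low counts, as did 14789 genes in all. They were chosen with their cKO and WT values known, so those values are a description. Where a member passed or missed the threshold of the fit over all genes, this is stated as part of it and is no independent evidence. YAP and TAZ, encoded by Yap1 and Wwtr1, are co-activators that act through TEAD transcription factors at the end of the Hippo pathway. The labels give the tissue, the genotype and a replicate number. The design names 3 mice per genotype. For age, strain, the Cre driver and timing of the deletion, the exons removed and any pooling, the sources used here give nothing.

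Slits are large secreted proteins built of leucine-rich repeats, epidermal growth factor repeats and a laminin G domain. They bind the immunoglobulin domains of Robo1 and Robo2 with heparan sulfate as a cofactor. The system is known for repelling axons at the midline of the nervous system and for steering migrating neurons, glia and vessel sprouts. Robo1 and Robo2 are the receptors of neurons and many other cells, Robo3 is a divergent receptor of commissural neurons, and Robo4 is a shortened receptor of endothelial cells.

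Slit2 was 6.84-fold lower in the cKO libraries. Slit3 and Robo1 had somewhat higher values in cKO that did not pass the threshold, and Robo2 and Robo4 overlapped between the groups. In the edgeR fit over all genes, 1 of the 5 members that could be tested was called lower (Slit2) and 0 higher at an adjusted p under 0.05. Over all tested genes 10.9% were called, 6.17% lower and 4.77% higher. The groups did not overlap for Slit2, Slit3 and Robo1, 3 of the 5 members, against 31.1% of all tested genes (15.3% with cKO higher and 15.8% with cKO lower). Because the members were picked from this contrast, nothing is read from these shares.

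Gene counts summed to between 24651262 and 32003497 in the cKO libraries and between 41270894 and 47044158 in the WT libraries. CPM values are counts scaled to library size by TMM factors, and 3 counts, the limit that a count of 0 allows, came to 0.0649 to 0.117 CPM. Such limits cover counting error only. With TMM scaling 56.4% of all calls were lower, and with total counts 32.3% were, since that scaling shifts the median over all genes by 0.12 (log2). Neither targeted gene was called lower. Yap1 stood at 102.5 to 108.8 CPM in cKO and 120.3 to 123.7 CPM in WT (log2 -0.20 ± 0.08, SE), and Wwtr1 at 337.3 to 371.8 CPM in cKO and 253.8 to 284.1 CPM in WT (log2 0.40 ± 0.09). Wwtr1 was called higher (edgeR adjusted p = 0.0208), a call lost without cKO 3, WT 1 or WT 2 (edgeR adjusted p = 0.117, 0.0914 and 0.0518). Whole-gene counts from whole nerve do not check which exons were removed in which cells, so group membership rests on the labels.

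The tissue label was checked against cell type markers. Markers of myelinating Schwann cells, such as Mbp, summed to 37640 to 50630 CPM in WT and to 9568 to 14980 CPM in cKO, and all 8 were called lower. Markers of the whole Schwann lineage, such as Sox10, were not called (0 of 5), with sums of 954.6 to 1074 CPM in WT and 947.8 to 1081 CPM in cKO. Skeletal muscle markers, led by Acta1 and Mylpf, went the other way: 12 of 13 were called higher, and their sums ran from 445.8 to 1725 CPM in WT and from 4554 to 9710 CPM in cKO. Muscle levels were higher in every cKO library than in any WT library, so a fit that adds them as a term cannot fully tell them apart from genotype. Nerve fibroblast markers had 2 of 10 called higher, and none was called among 3 perineurial, 9 pericyte and smooth muscle, 7 adipocyte, 7 macrophage and 12 endothelial genes. Among neuronal genes, with 0 of 4 tested called, Chat was at 0 in all 6 libraries and Rbfox3, Syt1 and Isl1 were too low to test. The neuronal sums were 24.52 to 28.1 CPM in WT and 28.15 to 41.09 CPM in cKO, without overlap. In the library WT 3, the sums for endothelium (693.5 CPM), adipocytes (630.7 CPM) and pericytes with smooth muscle (521.3 CPM) stood apart from WT 1 and WT 2 (453.8 to 466.4, 124.5 to 139.6 and 291.3 to 310.7 CPM). WT 3 was also above both for perineurium (194.1 against 119 to 132 CPM) and macrophages (457.2 against 334.4 to 337.6 CPM). The same held for fibroblasts (17400 against 14000 to 14780 CPM) and myelinating Schwann cells (50630 against 37640 to 39550 CPM). It did not hold for Schwann lineage, skeletal muscle or neuronal genes. In whole nerve, fewer cells of a type and less RNA per cell cannot be told apart.

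**Figure D1:**
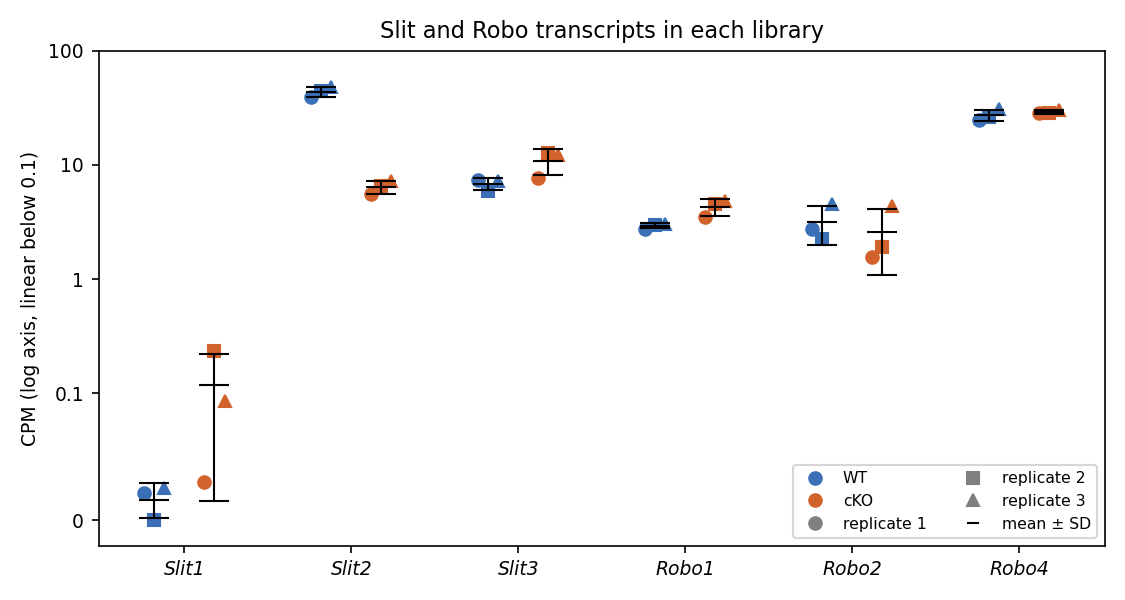
CPM of each Slit and Robo member (log axis, linear below 0.1) in the 3 WT and 3 cKO libraries, with marker shape for the replicate and bars for mean ± SD. Slit2 sits between 39.11 and 47.8 CPM in WT and between 5.516 and 7.189 CPM in cKO, while Robo4 overlaps between the groups.

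Slit2 (chromosome 5, 47983138 to 48307733, plus strand, mm10) encodes a repellent ligand made by many tissues, among them the floor plate and motor neurons. Its raw counts were 1808, 1780 and 1897 in WT 1, 2 and 3 and 183, 167 and 229 in cKO 1, 2 and 3. On the CPM scale these are 39.11, 44.49 and 47.8 in WT and 5.516, 6.502 and 7.189 in cKO. Every cKO library was far below every WT library, and the spread within each group was small beside the gap. The group means were 43.8 ± 4.38 CPM in WT and 6.403 ± 0.841 CPM in cKO (SD, n = 3 per group). The log2 fold change was -2.77 ± 0.14 (SE), the 25th most negative of the 14789 tested genes. Leaving out each library in turn gave -2.88 to -2.68, total counts gave -2.65, and adding each library's muscle marker level to the fit gave -2.80. Myelinating Schwann cell markers were lower in the same libraries (median log2 fold change -1.38). Their part in the Slit2 difference was not tested. No exon of another GENCODE M21 gene overlaps an exon of Slit2.

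Because Slit2 differed most, the part of its RefSeq promoter window (GRCm38.p6, plus strand, chr5:47982905-47983137) that lies before the first GENCODE exon is shown. Capitals mark matches to the motifs searched on both strands, which were the TEAD core GGAATG, the Egr site GCGNGGGCG, the TATA box TATAAA, the GC box GGGCGG and the ETS site CAGGAAG.
Slit2 promoter: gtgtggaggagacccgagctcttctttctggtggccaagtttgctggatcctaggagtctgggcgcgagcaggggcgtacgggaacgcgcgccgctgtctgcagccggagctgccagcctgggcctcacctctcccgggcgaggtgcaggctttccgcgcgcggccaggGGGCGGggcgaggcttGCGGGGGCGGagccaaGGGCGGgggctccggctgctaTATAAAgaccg
A TATA box starts at -28 from the RefSeq start site, a position usual for that element, and 13.6% of the 32851 promoter windows of 300 bases hold one. The last base shown is at -18 and the GENCODE gene starts right after it, so the box lies closer to that start. An Egr site at -65, which overlaps 1 of the 3 GC boxes, has a match in 5.55% of windows, and a GC box in 35.7%. No TEAD core is among these letters, and 14.7% of windows have one. The RefSeq table held windows for 5 of the 6 members and for Robo3. In the Slit3 window were 6 GC boxes and 1 Egr site that overlaps the last of them, all on the opposite strand. In the Robo4 window was 1 ETS site (13.3% of windows). These Slit3 and Robo4 matches lie within annotated GENCODE exons of the genes. Only 18 bases of the Slit3 window and 175 of the Robo4 window come before the first exon. In 1 of the 3 Robo2 windows, which lies outside the GENCODE gene, was a TEAD core. The Robo1 window had none of the 5 motifs. A match is a string of letters and says nothing on whether a factor was bound.

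Slit3 (chromosome 11, 35121224 to 35708507, plus strand) is the Slit best known from mesenchyme, diaphragm and vessels. Its counts were 339, 236 and 288 in WT 1, 2 and 3 and 257, 329 and 389 in cKO 1, 2 and 3, or 7.333, 5.899 and 7.256 CPM in WT and 7.747, 12.81 and 12.21 CPM in cKO. The groups did not overlap, but cKO 1 lay next to WT 1, and cKO 2 and cKO 3 made the difference. Group means were 6.829 ± 0.807 CPM in WT and 10.92 ± 2.77 CPM in cKO (SD, n = 3), a log2 fold change of 0.68 ± 0.21 (SE) that was not past the threshold. The libraries with more Slit3 were also those with more muscle RNA: the muscle marker sums were 4554 CPM in cKO 1 against 9710 in cKO 2 and 6088 in cKO 3. When muscle level was added to the fit, the log2 fold change was 0.03 ± 0.38 (SE), a wider error than without it. The part of muscle in the Slit3 difference was not tested. Without cKO 1 the log2 fold change was 0.87 and without cKO 2 it was 0.55. Slit3 passed the threshold without cKO 1, with total counts (0.80) and in DESeq2 (0.66).

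Slit1 (chromosome 19, 41600257 to 41743665, minus strand), a Slit of the central nervous system, was barely present. It had 1, 0 and 1 counts in WT 1, 2 and 3 and 1, 6 and 3 counts in cKO 1, 2 and 3, which is at most 0.2336 CPM, and it did not pass the low-count filter. Pooled over the 3 libraries of each group, 10 counts in cKO against 2 in WT give a ratio of 6.94 per unit of library size. Its exact 95% interval of 1.48 to 65.2 covers counting error only. It leaves out the spread between libraries, so it is no test of the groups and no rise is read from it. The library cKO 2 gave 6 of the 10 counts, so the groups' difference rests largely on it.

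Per length, the ligand that led in WT was not the one that led in cKO. RPKM, the CPM divided by the kilobases in the union of each gene's GENCODE exons, gave Slit2 1.72 ± 0.172 and Slit3 1.13 ± 0.133 in WT (SD, n = 3), with ranges that did not overlap (1.54 to 1.88 and 0.972 to 1.21). In cKO Slit2 was at 0.252 ± 0.0331 RPKM and Slit3 at 1.80 ± 0.456. The ratio of Slit2 to Slit3 went from 1.55 ± 0.264 in WT to 0.144 ± 0.0246 in cKO. Slit2 made up 55.9% to 64.3% of the summed Slit RPKM in the WT libraries and 10.6% to 14.5% in the cKO libraries. These shares depend on the length used. By the longest transcript, Slit2's share was 73.6% to 79.8% in WT and 20.8% to 27.1% in cKO, and the order of the ligands was the same in each library. Summed over the 3 ligands, the level was 2.75, 2.72 and 3.08 RPKM in WT 1, 2 and 3 and 2.41 and 2.31 RPKM in cKO 2 and 3, with cKO 1 lower still. By the longest transcript these sums were 5.33, 5.59 and 6.19 RPKM in WT 1, 2 and 3 and 2.04, 3.14 and 3.07 RPKM in cKO 1, 2 and 3, a wider gap. The groups did not overlap by either length. For Slit2 the union of exons, which takes in retained-intron transcripts, has 25433 bases and the longest transcript 9960, so its level per length depends most on this choice.

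**Figure D2:**
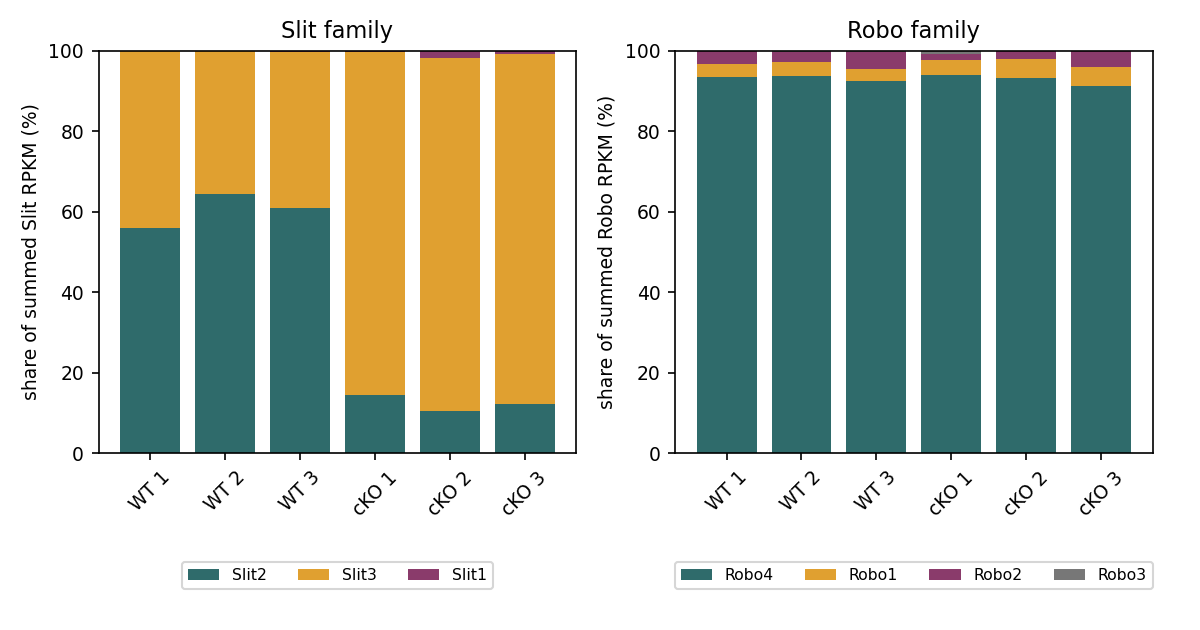
Share of each gene in the summed RPKM of its family, in percent, for each library (stacked bars, 1 bar per library). Slit2 takes 55.9% to 64.3% of the Slit bars in WT and 10.6% to 14.5% in cKO, while Robo4 takes 91.3% to 93.9% of every Robo bar.

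Robo1 (chromosome 16, 72308306 to 73046095, plus strand) is the receptor with the widest range of tissues. Its counts were 128, 120 and 121 in WT 1, 2 and 3 and 116, 116 and 155 in cKO 1, 2 and 3. Scaled to library size these were 2.769, 2.999 and 3.049 CPM in WT and 3.497, 4.517 and 4.866 CPM in cKO. All 3 cKO libraries were above the WT libraries, which lay close together (2.939 ± 0.149 CPM against 4.293 ± 0.712 CPM, SD, n = 3). The log2 fold change was 0.55 ± 0.22 (SE) and was not past the threshold in any of the 13 alternative fits, where it ran from 0.44 to 0.67.

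Robo2 (chromosome 16, 73891839 to 74411825, minus strand), the receptor on the same chromosome as Robo1, is best known from kidney and retinal axons. It had 2.769, 2.249 and 4.535 CPM in WT 1, 2 and 3 and 1.567, 1.908 and 4.332 CPM in cKO 1, 2 and 3. The groups overlapped, and in each group replicate 3 was the highest. Its spread was the widest of the 5 tested members, with a biological coefficient of variation of 36.6% against 11.4% for Robo4 and 12.7% for Slit2. The log2 fold change of -0.29 ± 0.42 (SE) was smaller than its error. It was -0.88 without cKO 3, -0.02 without cKO 1, -0.11 without cKO 2 and 0.03 without WT 3.

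Robo4 (chromosome 9, 37401897 to 37415115, plus strand), which stabilises the vessel wall, was the most abundant receptor transcript. Its counts were 1153, 1047 and 1222 in WT and 948, 726 and 974 in cKO, or 24.94, 26.17 and 30.79 CPM in WT 1, 2 and 3 and 28.58, 28.27 and 30.58 CPM in cKO 1, 2 and 3. The groups overlapped, with WT 3 the highest library (27.3 ± 3.08 against 29.14 ± 1.25 CPM, SD, n = 3). The log2 fold change was 0.10 ± 0.11 (SE), 0.16 without WT 3, 0.00 without WT 1 and 0.05 without cKO 3. Endothelial markers, led by Cdh5 and Pecam1, summed to 466.4, 453.8 and 693.5 CPM in WT 1, 2 and 3 and to 611.1, 652.3 and 698.5 CPM in cKO 1, 2 and 3, with 0 of 12 called by edgeR. As a percentage of that sum, Robo4 stood at 5.35, 5.77 and 4.44 in WT 1, 2 and 3 and at 4.68, 4.33 and 4.38 in cKO 1, 2 and 3. On that scale WT 1 and WT 2 were the highest libraries and WT 3 lay among the cKO libraries.

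Among the receptors Robo4 was far ahead in both groups. Per length it stood at 5.15 ± 0.582 RPKM in WT and 5.50 ± 0.237 RPKM in cKO (SD, n = 3) and made up 91.3% to 93.9% of the summed Robo RPKM in the 6 libraries (84.3% to 89.1% by the longest transcript). In WT, Robo2 (0.188 ± 0.0706 RPKM) and Robo1 (0.178 ± 0.00904 RPKM) did not differ beyond their spread. In cKO Robo1 (0.260 ± 0.0431 RPKM), Slit2 and Robo2 (0.153 ± 0.0888 RPKM) had overlapping ranges, so the change in the order of the Robo1 and Robo2 means is within their spread. By the longest transcript that change was absent, as the Robo1 mean was also above the Robo2 mean in WT (0.389 against 0.371 RPKM). Robo3, which lies 553 bases beyond the end of Robo4 on the minus strand, was close to the detection limit, with 1, 3 and 4 counts in WT 1, 2 and 3 and 10, 1 and 0 counts in cKO 1, 2 and 3. It did not pass the low-count filter. Over all 7 genes, the WT order per length was Robo4, Slit2, Slit3, then Robo2 with Robo1, then Robo3 with Slit1 near the detection limit. In cKO it was Robo4, Slit3, then Robo1 with Slit2 and Robo2, then Slit1 with Robo3. By the longest transcript, cKO Slit2 (0.643 ± 0.0844 RPKM) lay above Robo2 (0.303 ± 0.176 RPKM) with no overlap, and Robo1 (0.568 ± 0.0941 RPKM) overlapped both.

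Slit2 and Slit3 each hold a copy of the miR-218 gene in an intron, and the microRNA has been studied as a repressor of Robo transcripts. Mir218-1 lies within Slit2 (chromosome 5, 48223942 to 48224051, plus strand) and Mir218-2 within Slit3 (chromosome 11, 35616816 to 35616925, plus strand), and neither touches an annotated exon of its host. Both had 0 counts in all 6 libraries, which says nothing on the mature form. Both copies encode the same 5p product, shown with its seed (bases 2 to 8) in capitals.
mmu-miR-218-5p: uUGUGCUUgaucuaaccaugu
The match to this seed, AAGCACA, occurs in the longest annotated 3′ UTR of 16.7% of 13666 tested genes. It was found 1 time for Robo1, 2 times each for Robo2 and Slit2 and 1 time for Robo3, and 0 times for Slit1, Slit3 and Robo4. These UTRs ran from 365 bases for Slit3 to 3987 for Robo2, and a longer one has more room for a match. Slit1 and Robo3 are not among the tested genes. The numbers of matches are therefore not weighed against that share. The Robo1 match and the first Robo2 match are shown with the match in capitals (GRCm38, chr16:73045336-73045365, plus strand, and chr16:73895348-73895377, minus strand).
Robo1 site: ttttggttttaaAAGCACAatcactaaact
Robo2 site: ttatttggtgatAAGCACAaatctctactc
The matches are letters only.

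**Figure D3:**
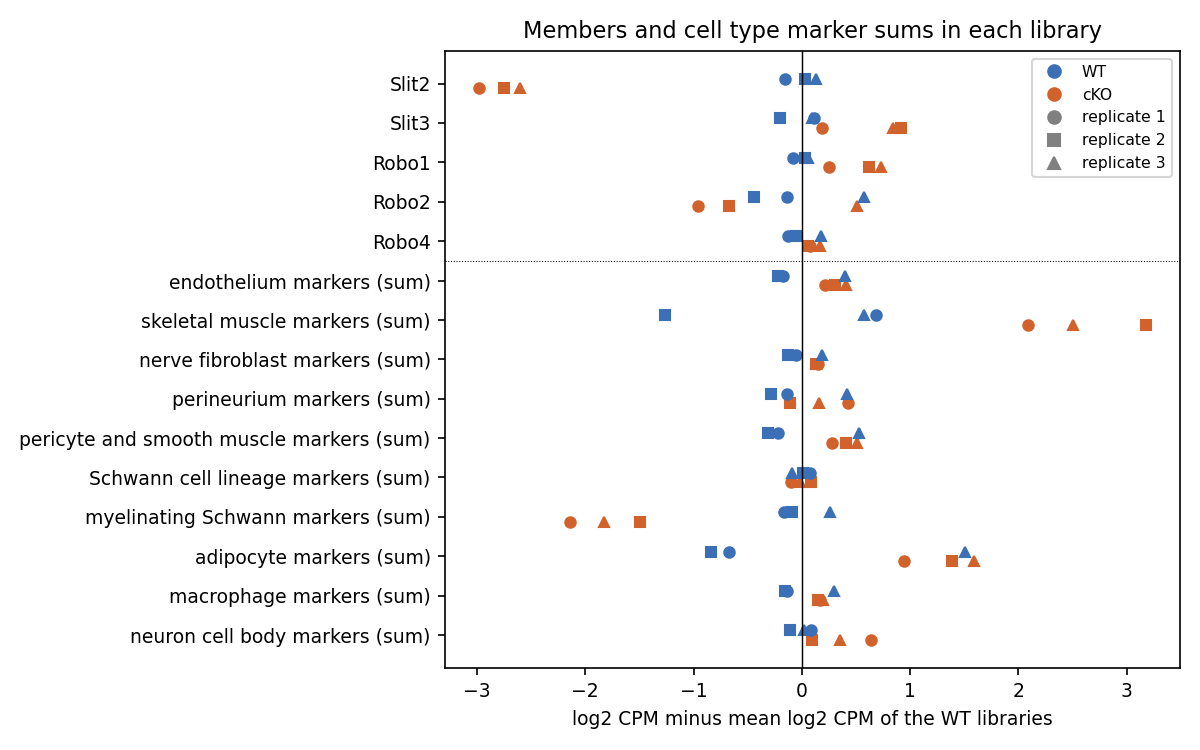
Log2 CPM of 5 members and of 10 summed cell type marker lists in each library, minus the mean of the 3 WT libraries (marker shape gives the replicate). The cKO libraries of Slit2 lie to the left of the WT libraries, as do those of the myelinating Schwann cell markers, while skeletal muscle markers lie to the right.

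Partners of the system were taken from a list of 70 genes arranged by role, 66 of which could be tested and none of which is a member. Among them 9 were called lower (13.6%, against 6.17% of all tested genes) and 6 higher (9.09%, against 4.77%) by edgeR, and 51 were not called. Their median log2 fold change was -0.01, beside 0.02 over all tested genes. The list was drawn up with earlier results of these data known, so nothing is read from these shares. The count of higher genes was 3 without cKO 2 or WT 2 and 2 without cKO 3, and the count of lower genes was 5 without WT 2. Adding muscle level to the fit left 1 called lower (Nell2) and 0 higher, and with total counts 6 were lower and 11 higher. Over all tested genes, 912 lower and 706 higher calls became 71 and 9 with muscle level and 606 and 1273 with total counts. The part of muscle in the partner differences was not tested. The partners called whichever 1 of the 6 libraries was left out were Nell2, Gpc1, Cap2, Cdh2, Ndfip2, Adam10 and Unc5c. The counts by role given below carry the same limit, beside 6.17% lower and 4.77% higher over all tested genes.

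Of the other ligands of Robo receptors and their binding partners, 2 of 4 tested genes fell. Nell2, a secreted ligand of Robo3, had 21.5, 10.92 and 16.78 CPM in WT 1, 2 and 3 and 3.376, 6.463 and 3.61 CPM in cKO 1, 2 and 3. Each cKO library was below each WT library, and the log2 fold change was -1.88 ± 0.31 (SE; edgeR adjusted p = 0.00627, and log2 -3.17 with muscle level in the fit). Flrt3, a membrane protein that binds Robo1 and Unc5 receptors, fell from 19.29 ± 1.97 to 12.08 ± 1.08 CPM (SD, n = 3; log2 -0.67 ± 0.13, edgeR adjusted p = 0.0126). That call was lost without cKO 2 or WT 2 (edgeR adjusted p = 0.0506 and 0.0528). With muscle level in the fit, the log2 fold change of Flrt3 was -0.403 ± 0.262 (SE). Flrt2 and Nell1 were not called, and Flrt1 was too low to test.

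Heparan sulfate is the sugar chain that holds Slit on Robo. Of 7 surface molecules that bind Slits, Gpc1 rose and 0 fell. Gpc1, a glypican that binds Slit2, went from 86.17 ± 2.67 CPM in WT to 117.8 ± 7.75 CPM in cKO (SD, n = 3; log2 0.45 ± 0.08, edgeR adjusted p = 0.00993). Dag1, whose product dystroglycan binds Slits and laminins, had a log2 fold change of 0.00 ± 0.13. Plxna1, a plexin that binds a Slit fragment, stood at 124.9 ± 24.9 CPM in cKO and 84.56 ± 11.2 CPM in WT and missed the threshold (edgeR adjusted p = 0.0502). Of 12 enzymes that build or trim heparan sulfate, 2 rose and 0 fell, with a median log2 fold change of 0.20. Hs6st2, a 6-O-sulfotransferase, rose 1.56-fold (edgeR adjusted p = 0.0151), and Hs3st1, a 3-O-sulfotransferase, rose 2.12-fold from 4.534 ± 1.79 to 9.583 ± 0.709 CPM (edgeR adjusted p = 0.0293). The call on Hs6st2 was lost without cKO 2, cKO 3 or WT 2 (edgeR adjusted p = 0.0538, 0.0862 and 0.0607). For Hs3st1 it held without WT 3 only and was lost without cKO 1, cKO 2, cKO 3, WT 1 or WT 2 (edgeR adjusted p = 0.0676, 0.0716, 0.123, 0.107 and 0.0963). With muscle level in the fit, the log2 fold change of Gpc1 went from 0.452 to 0.299 ± 0.175 (SE). That of Hs6st2 went from 0.641 to 0.451 ± 0.274, and that of Hs3st1 from 1.082 to 0.649 ± 0.516.

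**Figure D4:**
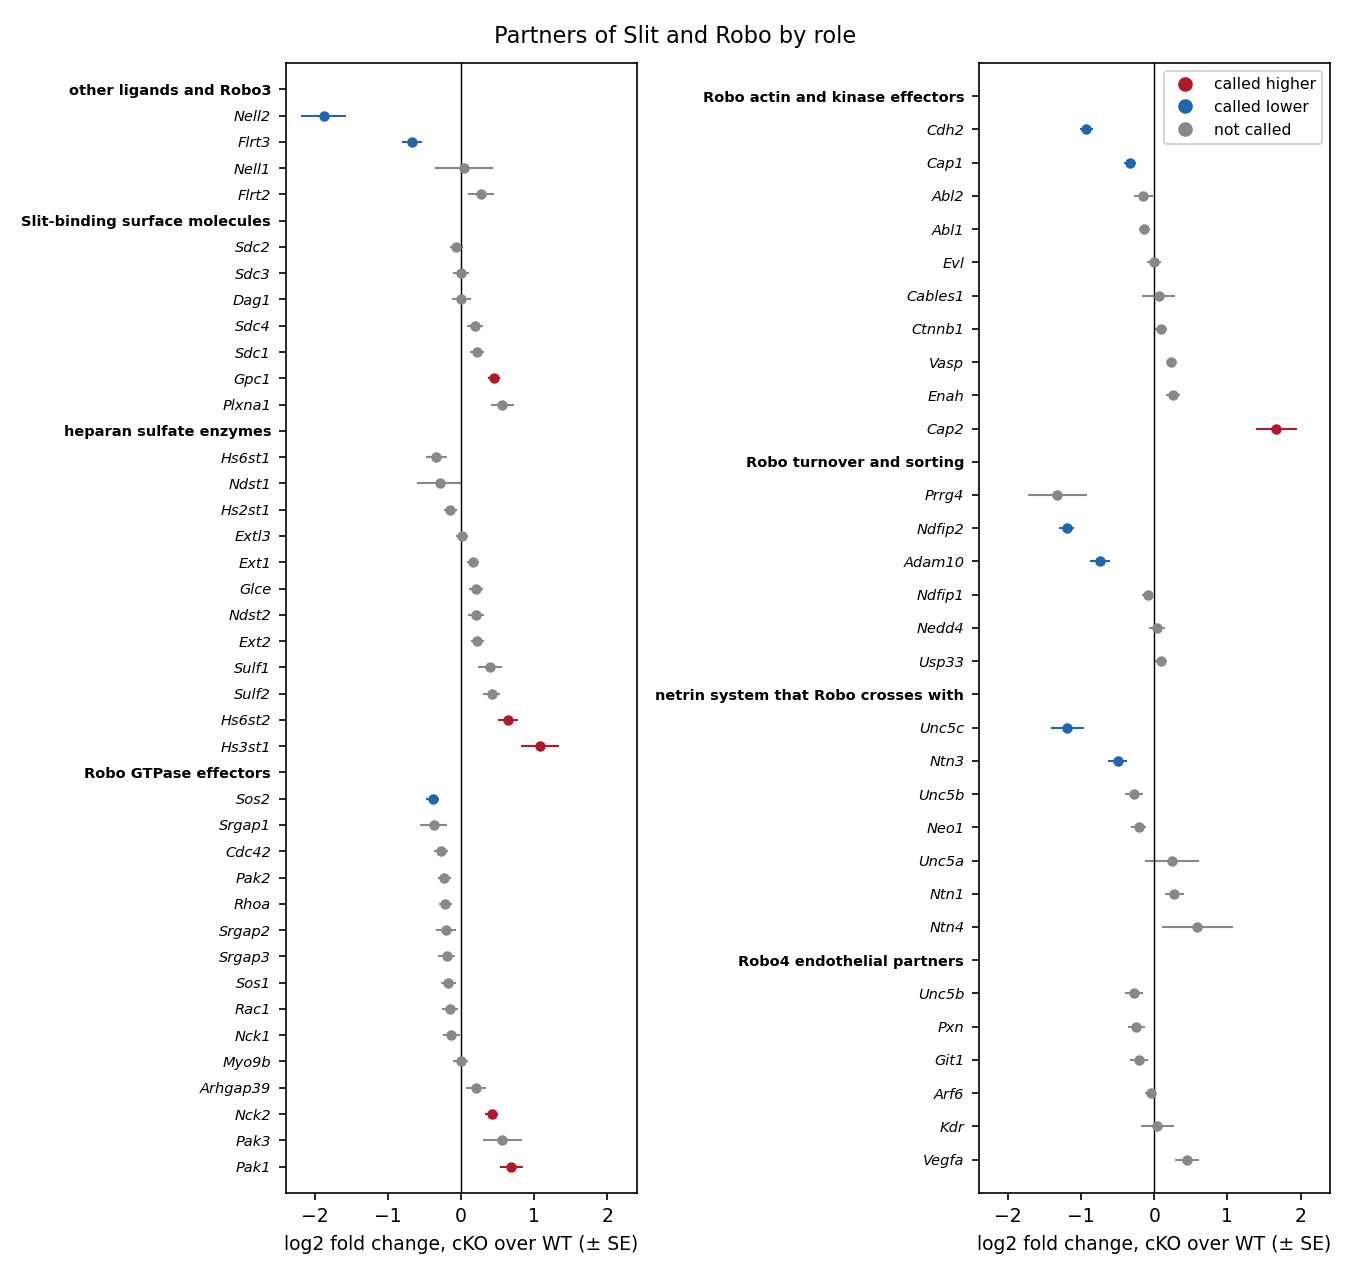
Log2 fold change (cKO over WT, ± SE) of each tested partner by role, coloured by the edgeR call at an adjusted p under 0.05 (Unc5b is in 2 lists). Nell2 at -1.88 and Cap2 at 1.67 are the most distant from 0 in each direction among the called genes.

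Inside the cell, Robo receptors act on small GTPases and actin. The Slit-Robo GTPase activating proteins did not pass, with log2 fold changes of -0.38 ± 0.19 for Srgap1, -0.21 ± 0.14 for Srgap2 and -0.20 ± 0.12 for Srgap3. Among 15 GTPase effectors 2 rose and 1 fell. Nck2, an adaptor on Robo's tail, rose 1.34-fold (log2 0.42 ± 0.09, edgeR adjusted p = 0.0149), Pak1, a kinase below Rac, rose 1.61-fold (edgeR adjusted p = 0.0225), and Sos2, a Ras and Rac exchange factor, fell by 0.39 on the log2 scale (edgeR adjusted p = 0.0222). Nck2 lost its call without cKO 3 or WT 1 (edgeR adjusted p = 0.0661 and 0.0551). The call on Pak1 was lost without cKO 2, cKO 3, WT 1 or WT 2 (edgeR adjusted p = 0.0846, 0.108, 0.0613 and 0.0852). For Sos2 the call did not hold without cKO 1, cKO 2, cKO 3 or WT 2 (edgeR adjusted p = 0.0566, 0.0535, 0.0792 and 0.0936) and with total counts (edgeR adjusted p = 0.104). With muscle level in the fit, the log2 fold change of Pak1 went from 0.688 ± 0.155 to 0.266 ± 0.292 (SE). Those of Nck2 and Sos2 were then 0.544 ± 0.182 and -0.408 ± 0.196.

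Among 10 actin and kinase effectors, 2 fell and 1 rose. Cdh2, the N-cadherin that Robo signalling can uncouple from actin, had 36.97, 39.61 and 40.39 CPM in WT 1, 2 and 3 and 20.47, 20.09 and 20.81 CPM in cKO 1, 2 and 3. The replicates of each group were nearly level, and the log2 fold change was -0.93 ± 0.09 (SE; edgeR adjusted p = 0.000655). Cap1, an actin-recycling protein that binds the Abl kinase, fell 1.26-fold (log2 -0.33 ± 0.08, edgeR adjusted p = 0.0326). It kept the call without WT 3 only, and lost it without cKO 1, cKO 2, cKO 3, WT 1 or WT 2 (edgeR adjusted p = 0.0679, 0.08, 0.122, 0.0655 and 0.0803) and with total counts (edgeR adjusted p = 0.132). Its paralog Cap2, the form of striated muscle, rose 3.18-fold, from 7.896, 4.199 and 7.433 CPM in WT 1, 2 and 3 to 16.19, 28.46 and 17.68 CPM in cKO 1, 2 and 3 (edgeR adjusted p = 0.00713). The libraries with the least and the most Cap2, WT 2 and cKO 2, also had the lowest and the highest muscle marker sums, 445.8 and 9710 CPM. With muscle level in the fit, Cap2's log2 fold change went from 1.67 ± 0.28 to 0.38 ± 0.29 (SE). The part of muscle in this difference was not tested.

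Genes that set how much Robo stays at the cell surface fell where they passed the test, 2 of 6. Ndfip2, an adaptor that sends Robo1 to degradation through Nedd4 family ligases, had 185.3, 199.5 and 237.9 CPM in WT 1, 2 and 3 and 88.8, 91.07 and 91.61 CPM in cKO 1, 2 and 3 (log2 -1.20 ± 0.11, edgeR adjusted p = 0.000441). Its levels in cKO were nearly constant and less than each WT library. Adam10, a protease that sheds the Robo1 ectodomain, fell from 499.9 ± 93.8 to 298.9 ± 15.1 CPM (SD, n = 3; edgeR adjusted p = 0.0089). The related Ndfip1 and the ligase Nedd4 were not called (log2 -0.09 ± 0.08 and 0.04 ± 0.10), nor was Usp33, a deubiquitinase of Robo1. Prrg4, a membrane protein that lowers Robo1 at the surface, averaged 11.6 ± 4.11 CPM in WT against 4.647 ± 2.25 CPM in cKO, without overlap, and missed the threshold (edgeR adjusted p = 0.0708).

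In the netrin system, which steers many of the same axons, 2 of 7 tested genes fell and 0 rose. Unc5c, a repulsive netrin receptor, had 6.922, 9.073 and 5.921 CPM in WT 1, 2 and 3 and 2.713, 3.426 and 3.485 CPM in cKO 1, 2 and 3, with no overlap (log2 -1.19 ± 0.22, edgeR adjusted p = 0.0108). Ntn3, a netrin, fell from 14.71 ± 0.426 to 10.41 ± 1.12 CPM (edgeR adjusted p = 0.0429). That call held without WT 3 only and was lost without cKO 1, cKO 2, cKO 3, WT 1 or WT 2 (edgeR adjusted p = 0.101, 0.0639, 0.129, 0.0954 and 0.128) and with total counts (edgeR adjusted p = 0.111). With muscle level in the fit, the log2 fold changes were -0.792 ± 0.44 for Unc5c and -0.631 ± 0.281 for Ntn3 (SE), beside -1.188 and -0.501 without it. Dcc and Unc5d were too low to test. None of the 6 partners of Robo4 in endothelium passed, the nearest being Vegfa at 22.82 ± 3.54 CPM in cKO and 16.72 ± 2.51 CPM in WT (edgeR adjusted p = 0.114).

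For each member the 2 genes with the most similar log2 CPM over the 6 libraries were taken from 10337 tested genes, those whose mean log2 CPM reached 3. For Slit2 they were Pex7 and Tiparp (both Pearson r = 0.9991), for Slit3 Pou6f1 (0.996) and Slu7 (0.9948), for Robo1 Lima1 (0.992) and Gbp2b (0.9903), for Robo4 Mgst1 (0.9894) and Mfng (0.9838), and for Robo2 Tmcc1 (0.9623) and Phtf2 (0.9606). Likeness ignores size: Tiparp fell 2.58-fold and Pex7 1.37-fold in cKO by edgeR (adjusted p = 0.000192 and 0.0136), beside the 6.84-fold difference of Slit2. With 6 points in 2 groups such values are easily reached, and 495 genes had an r over 0.95 with Slit2, 59 with Slit3, 40 with Robo4, 36 with Robo1 and 3 with Robo2.

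**Figure D5:**
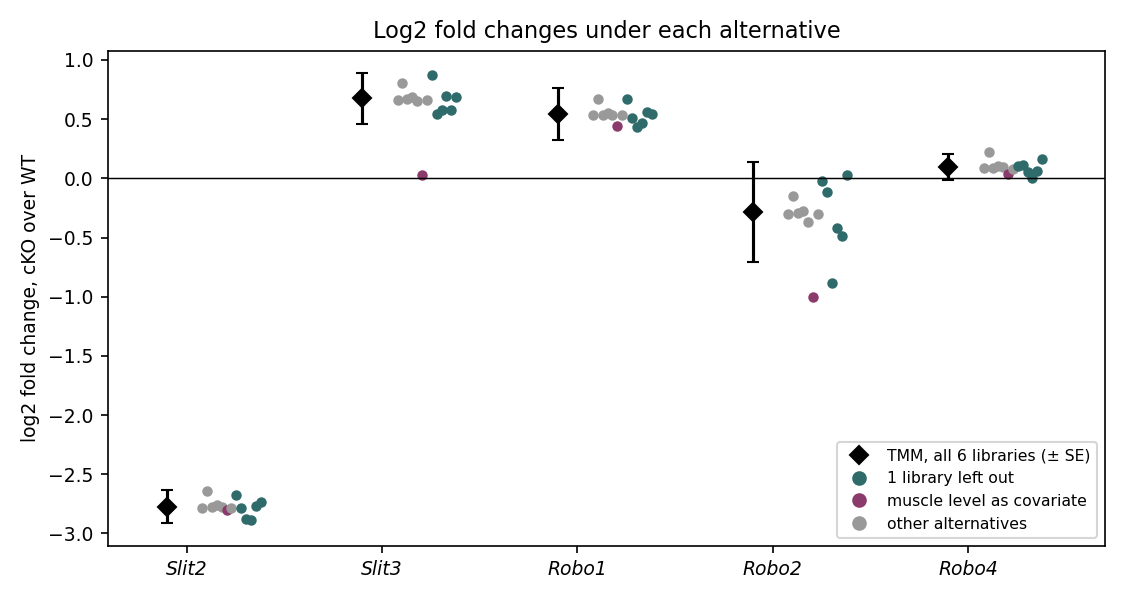
Log2 fold change (cKO over WT) of the 5 tested members with all 6 libraries and TMM scaling (diamond, ± SE) and under each of 13 alternatives (points). Slit2 stays between -2.88 and -2.65, while Slit3 is at 0.03 with muscle level in the fit and Robo2 spans -1.01 to 0.03.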

How the data were processed

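RNA of 3 cKO and 3 WT sciatic nerve samples was sequenced from Illumina TruSeq libraries, per the labels. The authors deposited unnormalised counts of reads for each gene symbol, made with TopHat2 2.0.13 and HTSeq on mm10, per the submitters' processing notes. For annotation and strand setting, the sources used here give nothing. The closing lines of each file (12.07% to 14.26% of counts in no gene, 1.635% to 2.818% ambiguous) were left out.

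edgeR 4.0.16 in R 4.3.3 was used with filterByExpr (minimum count 10), TMM factors and the quasi-likelihood F test with group as the only term, on all 6 libraries. Calls use a Benjamini-Hochberg adjusted p under 0.05 over 14789 genes, and the SE is the log2 fold change over the square root of F. Log2 CPM has a prior count of 2. Lengths and positions came from GENCODE M21 (GRCm38, the assembly of mm10), where 23376 of 24421 symbols matched, and promoter and microRNA sequences from RefSeq (GRCm38.p6).

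The members and all gene lists were chosen with earlier results of these data known. Named are the members, Robo3, Yap1, Wwtr1, called partners and the smallest p of lists without a call, 2 like genes per member and the 2 most abundant genes of a marker list. Of the Schwann cell marker lists, 2 genes are not reported here and were left out of the sums and counts. Other named genes were chosen after their values were seen. Alternatives were DESeq2 1.42.0, its size factors, total counts, other filters, a replicate block, a muscle covariate and leaving out each library.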

Additional observations from a re-analysis of the deposited data

How the results depend on the processing

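The log2 fold change of Slit2 ranged from -2.88 to -2.65 over the 13 alternatives, as a description. Left-out libraries gave log2 fold changes of -2.88 to -2.68 for Slit2, 0.55 to 0.87 for Slit3, 0.44 to 0.67 for Robo1, -0.882 to 0.026 for Robo2 and 0.00 to 0.16 for Robo4. With the muscle level as a covariate Slit3 was at 0.027 and Robo2 at -1.01, and with total counts Robo4 was at 0.22. Members called higher went from 0 to 1 (Slit3) with total counts, in DESeq2 and without cKO 1 (0 to 1 over left-out libraries). Over all genes, 706 higher and 912 lower calls became 1273 and 606 with total counts and 9 and 71 with the muscle covariate. Left-out libraries gave 276 to 1075 higher and 459 to 1120 lower, with 276 and 459 without cKO 3, 409 and 575 without WT 2, 395 higher without cKO 2, 449 without WT 1 and 1075 without WT 3. Among partners, 6 higher and 9 lower became 11 and 6 with total counts and 0 and 1 with the muscle covariate, and ran from 2 to 8 higher and 5 to 10 lower over left-out libraries. With the replicate number as a block 461 genes were higher and 643 lower, and 4 partners higher and 6 lower. Same-numbered libraries deviated with correlations of -0.21, -0.12 and 0.07, and differently numbered ones with -0.1 to 0.22. With 3 libraries per group such values cannot tell whether the numbers pair the samples. By the longest transcript the WT level was 4.40 RPKM for Slit2, 1.31 for Slit3, 0.389 for Robo1 and 0.371 for Robo2. The cause of each change was not tested. Slit1 and Robo3 are limited by depth, at 10 counts or fewer in every library.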
